A study of Drosophila melanogaster with 2 samples.

Results

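MicroRNA precursor genes were examined in a chromatin immunoprecipitation sequencing (ChIP-seq) study of dl-GFP in larvae of Drosophila melanogaster. The members were all annotated genes on the chromosome arms whose symbol begins with mir-, together with bantam and let-7, which the annotation used here names mir-ban and mir-let7. There were 260 of them among 17466 annotated genes on the arms, and 2 further mir- genes outside the arms were left out. Precursors on the same strand at most 10000 bp apart were counted once as a cluster, which gave 203 loci, of which 22 held several precursors and the largest held 12. Choosing the members used no measured value.

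The study had 1 group and no second condition. It comprised larvae of the third instar at the wandering stage, males and females pooled and processed as whole organisms, from the strain dl-small-GFP. This transgenic line carries GFP at the C-terminus of the dl-RC isoform of Dorsal, the NF-kB protein that acts in Toll signalling, and chromatin was precipitated through the tag. There were 2 biological replicates, numbered 3 and 1, with sonicated fragments of 175 to 275 bp and 200 to 275 bp. The labels call the antibody dl in one field and anti-GFP in another. Every tissue of the larva was mixed, so binding in few cells and weak binding in many cells cannot be told apart.

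The authors deposited regions rather than reads. A candidate is a region of the pooled list made from both replicates against a control. A thresholded peak is a candidate that passed the authors' filter by the irreproducible discovery rate. On the arms there were 29970 candidates and 2690 thresholded peaks, so that 8.98% of candidates passed. Each region has a summit and a signal, which is the authors' value of enrichment over the control. A precursor was counted as having a peak when a summit lay within 1000 bp of it. Candidate lists of the single replicates, called list A and list B because nothing used here ties them to the replicate numbers, give the values by replicate. On the arms, the lowest pooled signal of a thresholded peak was 73.3 and the highest of the other candidates 73.2. Of the thresholded peaks, 92.2% had a candidate in both single lists. A thresholded peak is therefore not always a region found in each replicate. Read depth is unknown, and all intervals are exact Clopper-Pearson 95% intervals that cover the counting of genes or regions.

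MicroRNAs (miRNAs) are cut from long primary transcripts. In the nucleus Drosha with its partner Pasha releases the precursor hairpin, Dicer-1 cuts the hairpin to a short duplex, and one strand is loaded into Argonaute-1, which represses mRNAs that pair with the seed, bases 2 to 8 of the mature miRNA. Some precursors have a primary transcript of their own, often annotated as a long non-coding RNA (lncRNA), and others lie in introns of protein-coding genes and are made from the host transcript. A start site of the primary transcript can therefore lie far from the hairpin. In flies, miRNAs are known for roles in growth, apoptosis, the ecdysone response, muscle and neurons.

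The mature strands below belong to precursors with a thresholded peak and known roles, and are shown because some share a seed. Capitals mark the seed. All 260 precursors had the same coordinates in RefSeq, and the sequences are from the RefSeq release 6 reference assembly, the build of the region lists (dm6).
mir-92a, 3p arm: cAUUGCACuugucccggccuau
mir-92b, 3p arm: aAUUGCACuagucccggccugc
mir-275, 3p arm: uCAGGUACcugaaguagcgcgcg
mir-305, 5p arm: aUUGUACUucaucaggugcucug
mir-279, 3p arm: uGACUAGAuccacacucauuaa
mir-34, 5p arm: uGGCAGUGugguuagcugguugug
mir-277, 3p arm: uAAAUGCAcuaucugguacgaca
mir-2b-2, 3p arm: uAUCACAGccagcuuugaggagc

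The seed AUUGCAC of mir-92a and mir-92b is also that of mir-310, mir-311, mir-312 and mir-313, and 3 of these 6 precursors had a peak (mir-92a, mir-92b and mir-310). The seed AUCACAG, that of the mir-2 family whose members repress proapoptotic genes, is shared by 14 precursors, of which mir-2b-2 had a peak. The seed GACUAGA is shared by mir-279, mir-286 and mir-996, of which mir-279 had a peak. These families are named because they hold a precursor with a peak: of 33 seeds shared by several precursors, 26 had none, and 8.85% of all precursors had a peak. Precursors of one seed family often lie in the same cluster, so these counts are not independent.

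Summits fell inside the precursor itself at mir-9377 and mir-4962, both intronic. Their peaks are printed below on the forward strand of dm6, with the bases of the precursor in capitals. The third sequence is the peak of highest signal near any precursor, that of mir-4968, and the fourth is the peak shared by mir-275 and mir-305. In these last sequences capitals mark GAGAGAG, the repeat bound by GAGA factor, on either strand.
mir-9377, peak at chrX:12665152-12665288: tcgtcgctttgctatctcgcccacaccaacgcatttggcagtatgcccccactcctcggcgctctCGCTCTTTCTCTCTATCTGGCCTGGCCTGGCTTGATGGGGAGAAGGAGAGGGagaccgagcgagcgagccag
mir-4962, peak at chrX:3777276-3777519: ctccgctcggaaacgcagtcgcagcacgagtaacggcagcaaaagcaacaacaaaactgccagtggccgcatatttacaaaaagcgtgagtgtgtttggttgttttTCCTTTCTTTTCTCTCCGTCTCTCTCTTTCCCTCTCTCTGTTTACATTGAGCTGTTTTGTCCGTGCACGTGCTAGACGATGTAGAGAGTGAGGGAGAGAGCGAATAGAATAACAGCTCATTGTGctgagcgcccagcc
mir-4968, peak at chr3L:11553323-11553495: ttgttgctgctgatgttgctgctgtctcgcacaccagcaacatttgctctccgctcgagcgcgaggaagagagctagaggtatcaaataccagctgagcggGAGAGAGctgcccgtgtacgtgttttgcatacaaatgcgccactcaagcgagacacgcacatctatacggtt
mir-275 and mir-305, peak at chr2L:7424941-7425184: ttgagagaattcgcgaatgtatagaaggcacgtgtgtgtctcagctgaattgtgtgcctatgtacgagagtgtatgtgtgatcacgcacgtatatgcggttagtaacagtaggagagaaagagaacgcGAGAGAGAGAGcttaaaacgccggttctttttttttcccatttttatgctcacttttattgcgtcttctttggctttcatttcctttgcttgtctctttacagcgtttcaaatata

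In the mir-9377 and mir-4962 hairpins, CT runs stand on the forward strand in the 5′ part of the precursor and GA runs in its 3′ part. The GAGAGAG motif, searched on both strands, is in the bases of 7 of the 260 precursors (mir-967, mir-2490, mir-14, mir-1016, mir-4961, mir-4962 and mir-3645). Of these 7, mir-4962 had a thresholded peak and 4 had a candidate within 1000 bp, against 8.85% and 41.9% of all 260. Within 100 bp of the summit, the motif stood in 8 of the 22 peaks near precursors (36.4%, interval 17.2 to 59.3%), against 43.9% of all thresholded peaks on the arms and 5.58% of the candidates that did not pass. The binding motif of Dorsal itself was searched on both strands as GGG, a short run of A or T, and CCA or CCC. This motif was in 1 of the 22 peaks, the one near mir-4943 (4.55%, interval 0.115 to 22.8%). It was in 1.52% of all thresholded peaks and in 1.39% of the candidates that did not pass. A match describes the letters of the window and is not evidence of a bound factor.

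Of the 260 precursors, 23 had a thresholded peak within 1000 bp (8.85%, interval 5.69 to 13.0%), and 237 had none. Counted once per cluster, 20 of 203 loci did (9.85%, interval 6.12 to 14.8%). Of random positions along the arms for a precursor of the median length of 92 bp, 3.49% would have a thresholded summit in the window. The share was 12.6% among the 17206 other annotated genes of any length, measured from any base of the gene. Among 687 other short non-coding RNA genes of at most 250 bp, it was 5.97%. The shares of both gene backgrounds lie inside the interval of the precursors, and that of positions lies below it. The interval of the loci holds the 12.6% of other annotated genes, while the 5.97% of short non-coding RNA genes lies just below it. Those background genes were counted singly, without joining clusters.

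A candidate of any rank lay within 1000 bp of 109 precursors (41.9%, interval 35.9 to 48.2%) and 86 loci (42.4%, interval 35.5 to 49.5%). The background was 30.6% of arm positions, 50.3% of the other annotated genes and 56.3% of the other short non-coding RNA genes. The precursors therefore stood above positions and below both gene backgrounds. There were 148 separate candidates near precursors, and 22 of them passed (14.9%, interval 9.56 to 21.6%), against the 8.98% of all candidates.

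**Figure D1:**
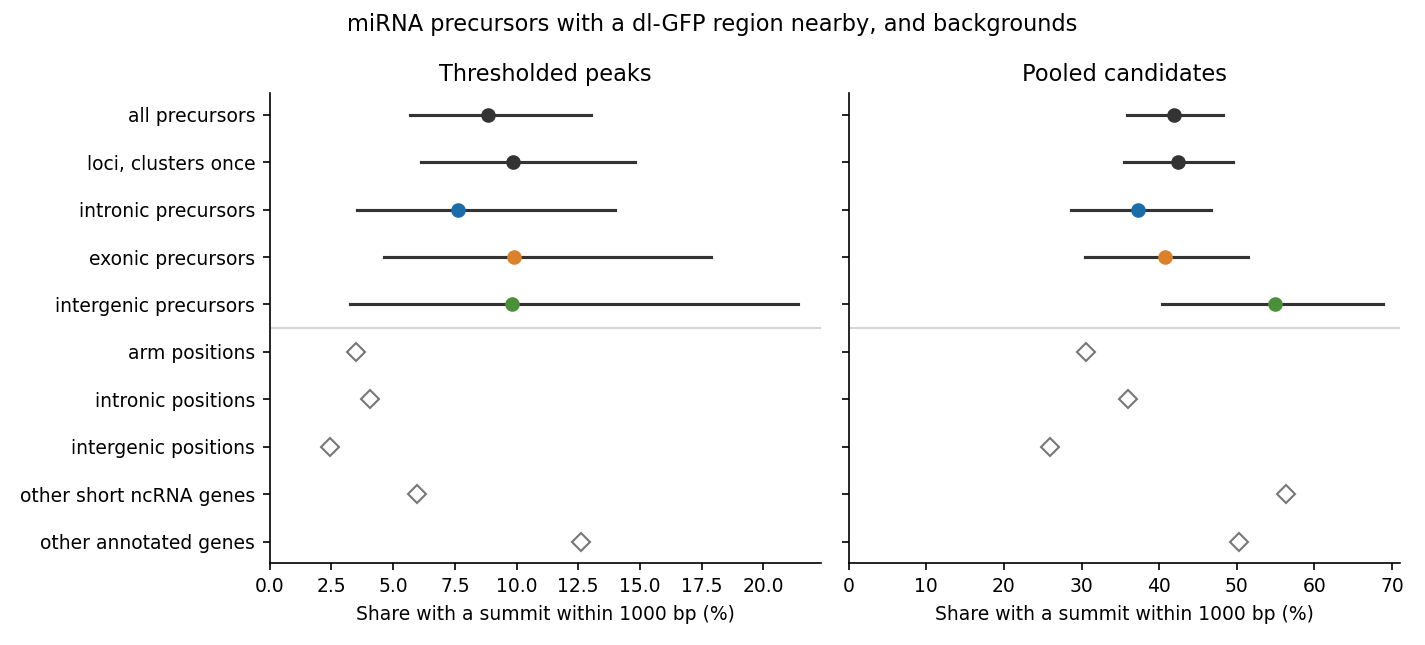
Share of precursors with a dl-GFP summit within 1000 bp, for thresholded peaks (left) and pooled candidates (right). Filled points are the precursors with exact 95% intervals and open diamonds are backgrounds; the interval of the 8.85% of precursors with a thresholded peak lies above the 3.49% of arm positions and holds the 12.6% of other annotated genes.

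By place, 118 precursors were intronic, 91 overlapped an exon of a protein-coding or lncRNA gene and 51 were intergenic. Thresholded peaks lay near 9 of the 118 intronic precursors (7.63%, interval 3.55 to 14.0%), against 4.07% of intronic positions. They lay near 9 of the 91 exonic precursors (9.89%, interval 4.62 to 17.9%) and near 5 of the 51 intergenic precursors (9.8%, interval 3.26 to 21.4%), against 2.44% of intergenic positions. The intervals of the 3 classes overlap, so no order between them can be read. By locus the counts were 9 of 101 intronic, 8 of 75 exonic and 5 of 33 intergenic, and a cluster with precursors of more than one class counts in each.

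Candidates lay near 44 intronic precursors (37.3%, interval 28.6 to 46.7%), against 36.0% of intronic positions. They lay near 37 exonic precursors (40.7%, interval 30.5 to 51.5%). They lay near 28 intergenic precursors (54.9%, interval 40.3 to 68.9%), against 25.9% of intergenic positions. Intronic precursors were thus close to their background in candidates, while the interval of the intergenic precursors lay above theirs. Many intergenic precursors are clustered, and by locus the intergenic count was 18 of 33 (54.5%, interval 36.4 to 71.9%).

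The median distance from a precursor to the nearest thresholded summit was 17628 bp, with quartiles of 5383 and 46282 bp. It was 17828 bp for intronic, 13169 bp for exonic and 32911 bp for intergenic precursors, against 31520 bp for all bases of the arms. The members just inside the limit were mir-310 at 984 bp and mir-2b-2 at 943 bp. Those next beyond it were mir-14 at 1001 bp, mir-311 at 1109 bp, mir-967 at 1224 bp, mir-2a-1 at 1235 bp and mir-276a at 1259 bp. Several of these belong to the same clusters as members inside the limit, mir-311 with mir-310 and mir-2a-1 with mir-2b-2.

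**Figure D2:**
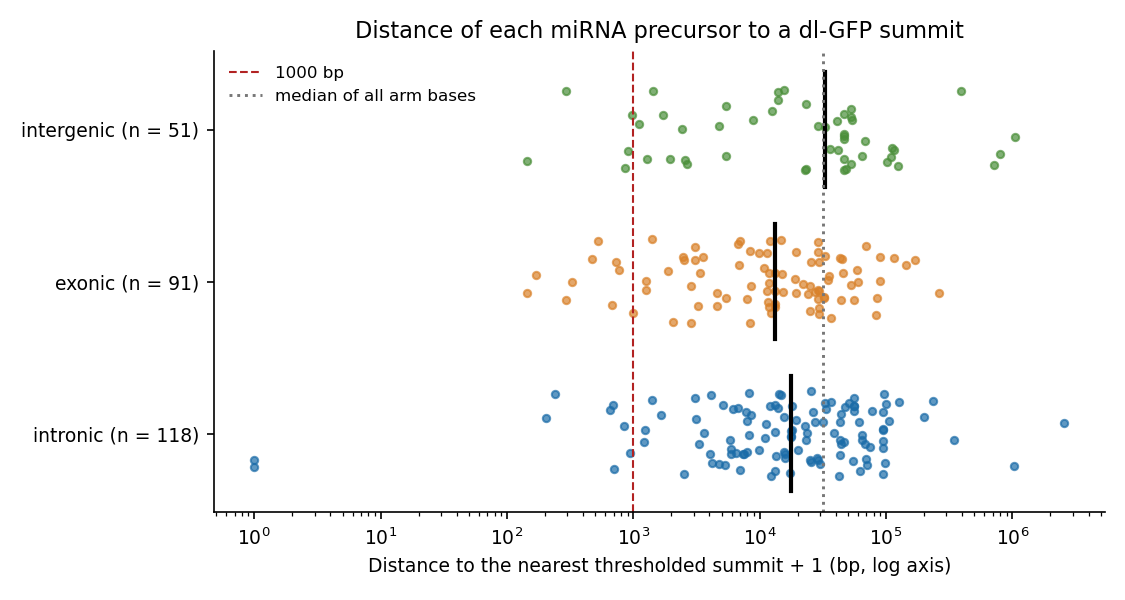
Distance of each of the 260 precursors to the nearest thresholded summit, plus 1, on a log axis, by place; bars are class medians, the dashed line is 1000 bp and the dotted line the median of all arm bases, 31520 bp. Most points of all 3 classes lie right of 1000 bp.

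The 23 precursors shared 22 peaks. The signal of these peaks had a median of 146 (lowest 74.0, highest 411), against 119 over all thresholded peaks on the arms. Of the 23 nearest summits, 15 lay upstream of the precursor on its own strand, 6 downstream and 2 inside. Among the 109 precursors with a candidate, the nearest one was upstream at 42, downstream at 56 and inside at 11. Of the 22 peaks, 8 lay within 500 bp of a start site of another gene (36.4%), against 55.1% of all thresholded peaks.

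**Figure D3:**
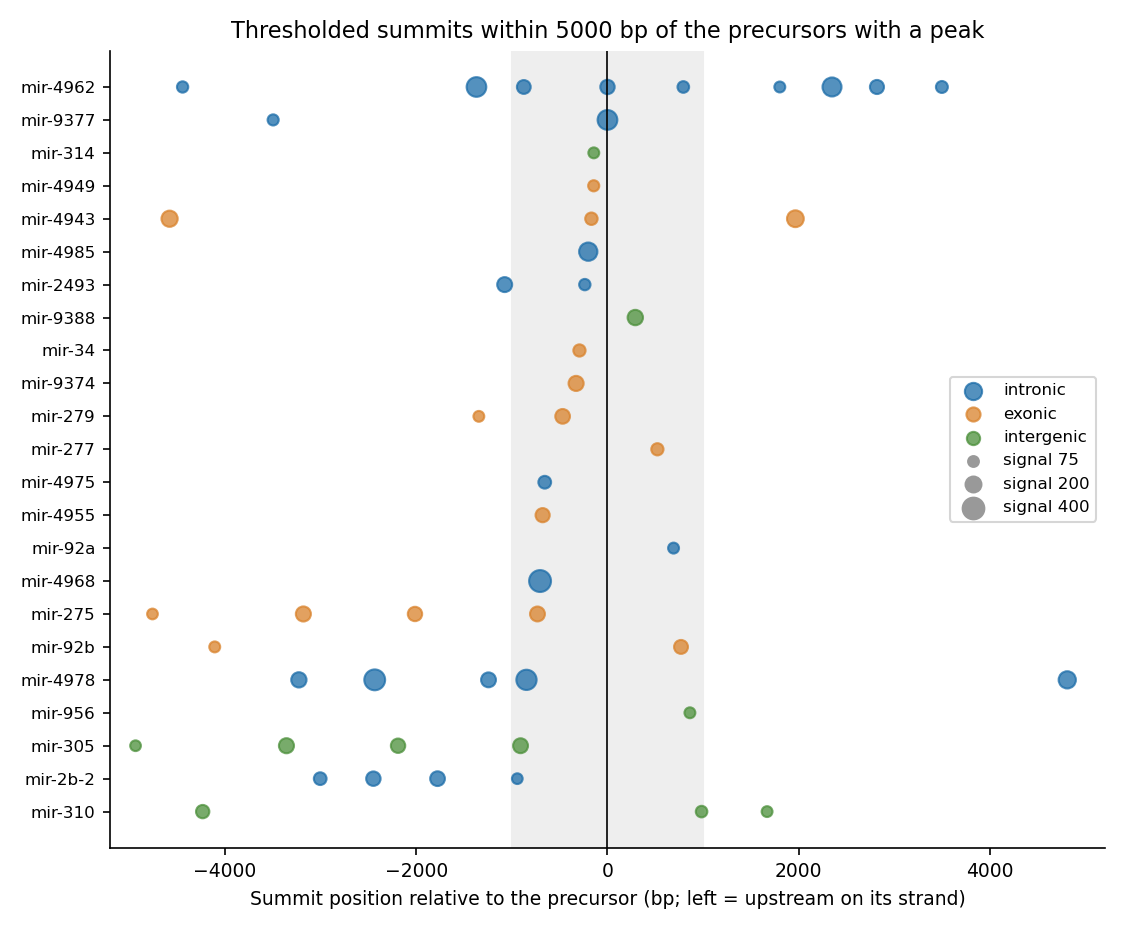
Thresholded summits within 5000 bp of the 23 precursors with a peak, placed by strand (left is upstream), with larger points for higher signal and colour by place; the grey band is 1000 bp on either side. Summits lie inside mir-9377 and mir-4962, and the nearest summit lies upstream at 15 of the precursors.

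Among the intronic precursors with a peak, mir-4968 lies in Mob2, a member of the Mob family of kinase regulators. The summit of its peak lay 705 bp upstream of the precursor and 286 bp from a Mob2 start site. Its signal was 411 in the pooled list, 188 in list A and 240 in list B, the highest near any precursor in the pooled list and in both single lists.

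mir-9377 lies in an intron of Tis11, which encodes a zinc finger protein of mRNA decay. The summit lay inside the hairpin and 4698 bp from the nearest start site of another gene, with a signal of 328 (174 in list A and 158 in list B). The host start sites themselves had no thresholded summit within 1000 bp, the nearest being at 1187 bp.

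mir-4962 lies in Tlk, a Tousled-like kinase of chromatin assembly. It was the precursor with the most summits around it, 3 within 1000 bp and 9 within 5000 bp. The summit inside the hairpin had a signal of 159 (86.6 in list A and 72.3 in list B). The peak 875 bp upstream had a signal of 144 (83.8 and 48.2). The peak 793 bp downstream had a signal of 93.1, with 73.9 in list A and no candidate in list B, and it was the only one of the 22 peaks without a candidate in both lists. A further peak of signal 324 lay 47 bp from a Tlk start site.

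mir-4985 lies in Fatp3, a fatty acid transport protein gene, 201 bp from a summit of signal 277 (149 in list A and 135 in list B) that was 67 bp from the Fatp3 start site. mir-4978 lies in mam, the Notch coactivator mastermind, on the opposite strand. Its peak was 847 bp away with a signal of 346 (180 and 189). These 2 peaks, with those of mir-4968 and mir-9377, were the 4 of highest signal near precursors in the pooled list, in list A and in list B.

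The other intronic precursors had weaker peaks. mir-2b-2 in spi, the EGFR ligand Spitz, was 943 bp from a summit of signal 74.0, with 49.2 in list A and 27.4 in list B. mir-92a in jigr1 was 691 bp from a summit of signal 78.3 that lay 45 bp from a jigr1 start site, with 36.0 in list A and 34.3 in list B, outside the best 2718 regions of both. mir-4975 in CG45092 (signal 118) and mir-2493 in CG42788 (signal 87.1) had summits 47 and 830 bp from host start sites. The mir-2493 peak had 60.5 in list A and 18.6 in list B, where it was outside the best 2718 regions.

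The exonic precursors with peaks include 4 in lncRNA genes that are annotated around them. mir-279, which acts in CO2-sensing neurons and in circadian output, lies in lncRNA:CR31044. Its summit was 469 bp upstream with a signal of 167 (80.6 in list A and 103 in list B), 554 bp from the lncRNA start site. mir-275 lies in lncRNA:CR43857, and mir-305, which acts in intestinal stem cells, lies just beyond its end. Their shared summit was 732 bp upstream of mir-275 and 909 bp upstream of mir-305, with a signal of 173 (108 in list A and 70.4 in list B). The lncRNA:CR43857 start site had a peak of its own, 38 bp away, with a signal of 158.

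mir-277, which acts on amino acid metabolism, and mir-34, which acts in ageing of the nervous system, lie in lncRNA:CR43459. The summit between them was 522 bp downstream of mir-277 and 293 bp upstream of mir-34, with a signal of 106 (60.3 in list A and 40.4 in list B). It was 6882 bp from the nearest start site of another gene, the farthest of the 22 peaks. mir-317, of the same cluster, had its nearest summit 1720 bp upstream, with a signal of 517, the peak nearest to the lncRNA:CR43459 start site at 4355 bp.

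Of the exonic precursors in protein-coding hosts, mir-92b in jigr1 was 769 bp from a summit of signal 147, with 103 in list A and 34.6 in list B. mir-9374 in Hr39, a nuclear receptor, was 328 bp from a summit of signal 178 (97.4 and 84.0), and mir-4955 in trol, the fly perlecan, 678 bp from one of signal 153 (90.6 and 70.7). mir-4943 in CG5953 had a summit of signal 110 at 168 bp (85.6 and 36.0), and mir-4949 in ATPsynC, a subunit of ATP synthase, one of signal 82.5 at 144 bp (37.1 and 43.9). In ATPsynC, trol and Hr39 the summit was 43, 159 and 723 bp from a host start site.

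Among the 5 intergenic precursors, mir-9388 was 291 bp from a summit of signal 186 (120 in list A and 59.1 in list B) that lay 159 bp from a start site of Mes2. mir-310, of a cluster that acts on Wingless signalling and immunity, was 984 bp from a summit of signal 91.0 (49.6 and 45.2) that lay 636 bp from a start site of qsm. mir-314 and mir-956 lie on opposite strands and shared a summit of signal 77.4 (44.6 and 37.7), at 143 and 862 bp. mir-305 is described above with mir-275. The 5 intergenic precursors thus rested on 4 peaks.

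By replicate, 19 of the 22 peaks were among the best 2718 regions of list A and 15 among those of list B. Both lists held 13 of them (59.1%), against 58.3% of all thresholded peaks on the arms, and 1 peak, that of mir-92a, was among the best of neither. A candidate of any rank stood at 21 of the 22 in both lists (95.5%, against 92.2% of all). The agreement of the lists at precursors was thus close to that of the whole list. The pooled list rests on the reads of both replicates and so is not independent of lists A and B.

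**Figure D4:**
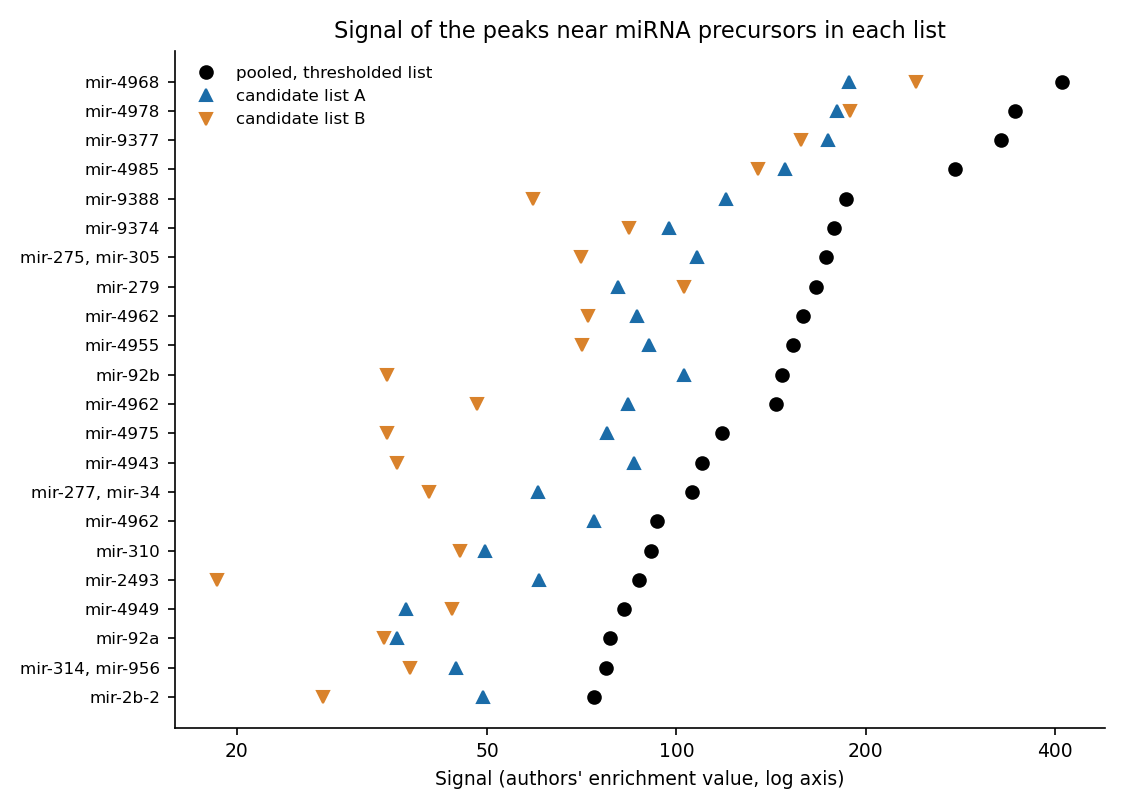
Signal of the 22 peaks near precursors in the pooled list (black), list A (blue) and list B (orange), on a log axis, ordered by pooled signal; each row is a peak, labelled by its precursors. Values are not normalised between lists; the mir-4968, mir-4978, mir-9377 and mir-4985 peaks are the highest in each, and one mir-4962 peak has no list B value.

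The start site of the host transcript was examined next. Of the 260 precursors, 182 lay in a gene on their own strand, in 156 different hosts. A thresholded peak lay within 1000 bp of a host start site for 59 of the 182 (32.4%, interval 25.7 to 39.7%), and 14 of them had a peak at the precursor too. Start sites on either side of the precursor were counted, and a transcript that starts downstream of a hairpin does not contain it. The peak nearest to a host start lay downstream of the precursor at tacc (mir-9384), kis (mir-965), for (mir-4972), CG5953 (mir-4943) and jigr1 (mir-92a), among others. Of the 17 sense-host precursors with a peak nearby, 10 had a precursor peak that itself lay within 1000 bp of a host start site. The nearest host start upstream of the precursor was a median of 2657 bp away.

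By host, 38 of 122 protein-coding hosts had a start-site peak (31.1%, interval 23.1 to 40.2%), against 10.8% of all protein-coding genes. Hosts are long, with a median of 13462 bp, and among the protein-coding genes at least that long 36.3% had one, inside the interval of the hosts. Of 34 lncRNA hosts, 11 had a start-site peak (32.4%, interval 17.4 to 50.5%), against 8.7% of all lncRNA genes and 18.9% of those at least as long as the median lncRNA host, 6116 bp. That last value also lies inside the interval. RefSeq names 23 of the hosts as primary miRNA transcripts, and 8 of these had a start-site peak (34.8%, interval 16.4 to 57.3%).

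**Figure D5:**
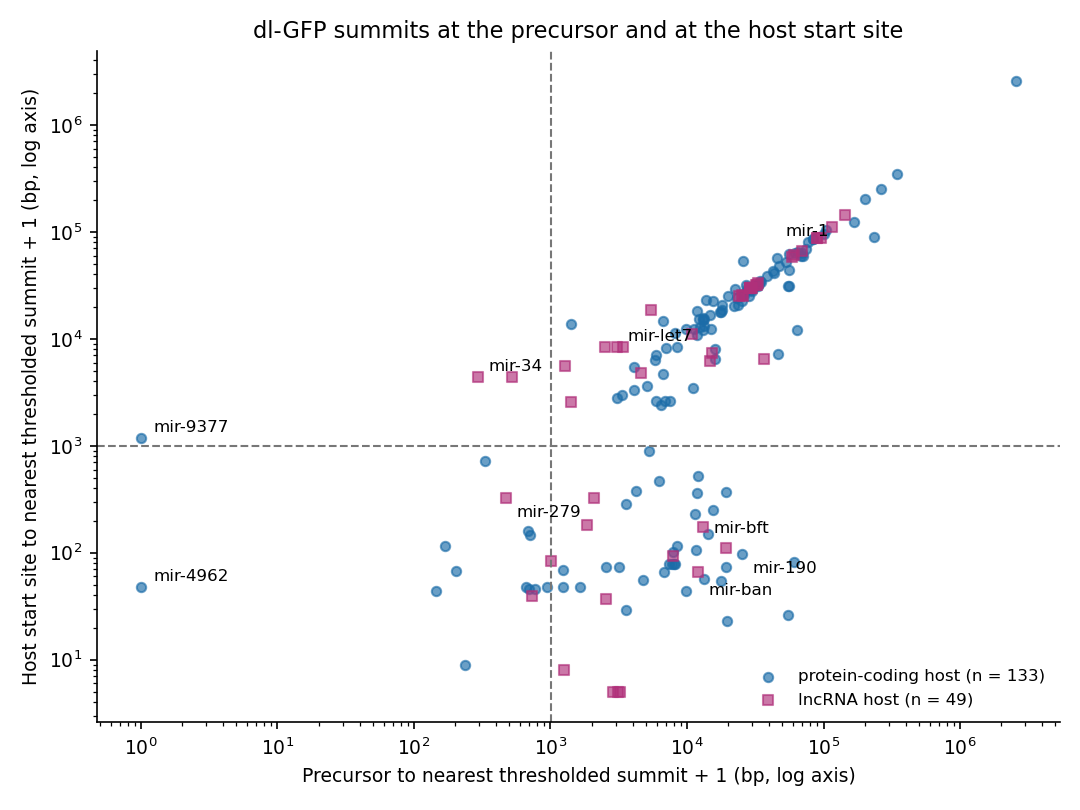
Distance from the precursor (x) and from the nearest host start site (y) to a thresholded summit, plus 1, both on log axes, for the 182 precursors in a sense host; dashed lines are 1000 bp. Points under the horizontal line are the 59 with a host-start peak, most of them with the precursor itself over 1000 bp from a summit, as at mir-ban and mir-190.

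For each host the peak nearest to a start site was taken, so a stronger peak farther away within 1000 bp is not ranked here. At Mob2 the nearest peak had a signal of 209, while the peak of 411 described above lay 286 bp from a start site. Of the nearest peaks, that of highest signal was at rhea, which encodes talin and hosts mir-190. It had a signal of 931 at 96 bp from a start site, while the mir-190 precursor was 25220 bp from the nearest summit. bun, a TSC22 family gene that hosts mir-967, had a peak of signal 653 at 68 bp. tacc, which hosts mir-9384, had one of 383, downstream of the precursor. The start-site peaks of Tlk (324) and Fatp3 (277), described above, came next, and grp, the fly Chk1 kinase and host of mir-9c, mir-306, mir-79 and mir-9b, had one of 266 at 78 bp. Of the precursors in these 6 hosts, mir-4962 in Tlk and mir-4985 in Fatp3 were themselves within 1000 bp of a thresholded summit, and those in rhea, bun, tacc and grp were not.

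In lncRNA hosts, again by the peak nearest to a start site, the highest signal was 222, at lncRNA:CR43314. This is the host of mir-263a, which the annotation names mir-bft and which protects sensory bristles from apoptosis. lncRNA:CR44206, the host of mir-184, had 204, and lncRNA:CR45911, the host of mir-13a, mir-13b-1 and mir-2c, had 143. The host of bantam, lncRNA:CR43334, had a peak of signal 104 at 65 bp from one of its start sites, while the bantam precursor was 12068 bp from the nearest thresholded summit and had no candidate within 1000 bp. The host-start peaks of lncRNA:CR43651 (mir-14), lncRNA:CR45916 (mir-9a) and lncRNA:CR46006 (mir-276a) had signals of 97.0, 89.5 and 83.9.

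The host-start peaks of mir-263a and of bantam are shown because the first holds the GAGAGAG motif as a long CT run and the second holds no match. Sequences are the forward strand of dm6 from RefSeq, with matches in capitals.
mir-263a host start, peak at chr2L:11971233-11971315: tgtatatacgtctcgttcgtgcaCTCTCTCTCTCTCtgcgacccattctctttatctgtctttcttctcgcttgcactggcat
bantam host start, peak at chr3L:628248-628491: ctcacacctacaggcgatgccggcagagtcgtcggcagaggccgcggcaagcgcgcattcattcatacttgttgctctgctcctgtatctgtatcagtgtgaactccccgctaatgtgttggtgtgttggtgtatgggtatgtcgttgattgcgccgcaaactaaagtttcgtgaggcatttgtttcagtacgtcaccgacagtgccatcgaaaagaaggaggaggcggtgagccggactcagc

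Of the 49 host-start peaks, each the nearest to a start site of its host, 19 held GAGAGAG within 100 bp of the summit. This share (38.8%, interval 25.2 to 53.8%) was close to the 43.9% of all thresholded peaks. The Dorsal motif was in 0 of the 49, against 1.52% of all thresholded peaks. With so low a share, 49 peaks are too few to show a difference. Both shares describe the letters in the window.

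Of the miRNAs known for growth and apoptosis, 3 of 26 had a peak at the precursor (mir-2b-2, mir-275 and mir-305) and 14 had a candidate, against 8.85% and 41.9% of all precursors. The peak of mir-275 and mir-305 is the same. At the start sites of the hosts of the listed miRNAs the count was higher. Of the 17 sense hosts of the list, 12 had a start-site peak (70.6%, interval 44.0 to 89.7%), 5 of 7 protein-coding and 7 of 10 lncRNA hosts, against 31.1% of all protein-coding and 32.4% of all lncRNA hosts of precursors. These 12 hosts carry 18 of the 25 hosted miRNAs of the list. They include the hosts of bantam, which promotes growth and represses the proapoptotic gene hid, mir-278 (CG42524, signal 180), mir-11 (E2f1, signal 145), mir-2b-1 (Btk, signal 150) and the spi cluster of mir-2a-1, mir-2a-2 and mir-2b-2 (signal 99.9). The 5 without were CCT2, meru and the lncRNA hosts of mir-8, mir-315 and the mir-6 cluster. The count was 13 in the best regions of list A and 11 in those of list B, alternatives chosen after seeing the data. Among genes at least as long as the median host, the share was 36.3% for protein-coding and 18.9% for lncRNA genes. Hosts of the ecdysone and timing list had a start-site peak in 3 of 7 (42.9%, interval 9.9 to 81.6%). Those of the immunity list had one in 2 of 6 (33.3%, interval 4.33 to 77.7%).

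Of the 9 miRNAs of the ecdysone response and developmental timing, mir-34 had a peak (11.1%, interval 0.281 to 48.2%) and 7 had a candidate, against 8.85% and 41.9% of all precursors. The let-7 complex, whose miRNAs let-7, mir-100 and mir-125 are induced around metamorphosis, lies in lncRNA:let7C. Its precursors were 2488 bp (mir-100), 3088 bp (let-7) and 3369 bp (mir-125) from a summit of signal 76.2, with candidates of 25.4 to 32.1 within 1000 bp. The nearest summit to a start site of lncRNA:let7C was 8383 bp away. mir-14, which acts in ecdysone signalling and fat metabolism, was 1001 bp from a summit of signal 97.0 that lay 83 bp from its host start site, and was the nearest precursor outside the limit. mir-8, which acts in the fat body on body growth, had the highest candidate signal of any precursor without a peak, 71.5, just under the lowest thresholded signal on the arms, 73.3.

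Of the 18 miRNAs with reported roles in immunity, 3 had a peak (mir-34, mir-277 and mir-310) and 12 had a candidate. The share with a peak, 16.7% (interval 3.58 to 41.4%), has the 8.85% of all precursors inside its interval, and 41.9% of all precursors had a candidate. The peak of mir-34 and mir-277 is the same, and several miRNAs of the list lie in the same clusters. The counted miRNAs are therefore not independent, which the interval does not take into account. The mir-959, mir-960, mir-961, mir-962 and mir-964 precursors, on the strand opposite to DIP-theta, were 93776 to 94938 bp from the nearest thresholded summit and had no candidate. mir-958, in lncRNA:CR43270, was 58717 bp away. The lists of roles overlap, and mir-8 stands in 3 of them.

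Of 20 miRNAs of muscle and neurons, 3 had a peak (mir-279, mir-92a and mir-92b) and 7 had a candidate. The share with a peak was 15.0% (interval 3.21 to 37.9%), against 8.85% of all precursors, of which 41.9% had a candidate. mir-1, the miRNA of muscle, was 69972 bp from the nearest thresholded summit and mir-124, of neurons, 115967 bp, and neither had a candidate. mir-7, which acts in photoreceptor differentiation, lies in HnRNP-K, whose start site was 522 bp from a peak of signal 132. Of the 12 sense hosts of this list, 6 had a start-site peak (interval 21.1 to 78.9%), an interval that holds the 31.1% of all protein-coding and 32.4% of all lncRNA hosts.

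None of the 4 miRNAs of the Hox complexes had a peak at the precursor (interval 0 to 60.2%), against 8.85% of all precursors. A candidate lay near 3 of the 4, against 41.9% of all precursors. Of their 4 hosts, 0 had a peak at a start site (interval 0 to 60.2%), against 31.4% of all sense hosts. Both intervals hold the share of the whole, so these zeros do not set the Hox miRNAs apart. The nearest summits to the precursors were at 1268 bp for mir-10, 1414 bp for mir-iab-4 and mir-iab-8, which lie on opposite strands of the same stretch, and 15308 bp for mir-993.

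The strongest candidates that did not pass were those of mir-8 (71.5), mir-14 (67.3), mir-303 and mir-982, which share one (66.8), mir-2496 (60.9), mir-4959 (59.6), mir-986 (59.5), mir-954 (57.0), and mir-13a and mir-2c, which share one (56.9). The 126 candidates near precursors that did not pass had a median signal of 28.3, against 28.1 for all such candidates on the arms. mir-954 is 1 of 2 precursors on chromosome 4, both of which had a candidate and neither a peak. By chromosome, peaks lay near 5 of 56 precursors on 2L, 4 of 55 on 2R, 4 of 31 on 3L, 7 of 58 on 3R and 3 of 58 on X.

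Of 108 precursors with a number of 2000 or higher in their symbol, which are mostly later additions to the catalogue, 12 had a peak (11.1%, interval 5.87 to 18.6%). Of the 152 with a lower number or a name, 11 had one (7.24%, interval 3.67 to 12.6%). The intervals overlap.

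The genes of miRNA maturation and silencing were counted at their start sites. Of 21, 4 had a thresholded peak within 1000 bp (19.0%, interval 5.45 to 41.9%), against the 10.8% of all protein-coding genes. A candidate lay near a start site of 10. The share of other annotated genes with a candidate, 50.3%, was measured from any base of the gene. No share at start sites was made, so the 10 cannot be read as high or low. AGO1, the Argonaute that carries miRNAs, had a summit of signal 82.3 at 138 bp. AGO2, the Argonaute of siRNAs, had one of 77.2 at 24 bp, pAbp, the poly(A) binding protein, one of 74.3 at 57 bp, and Tailor, which uridylates hairpins of spliced introns, one of 78.2 at 549 bp. These are the signals of the peak nearest to a start site, and all 4 were under the median of 119 of the thresholded list. For 2 of the 4 genes a peak at or above the median signal also lay within 1000 bp of a start site. Just short of passing was gw, the GW182 partner of Argonaute, with a candidate of 73.1 at 67 bp, followed by r2d2 (64.8 at 2 bp) and Ars2 (59.6 at 46 bp).

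The genes of Drosha and Dicer-1, and of their partners Pasha and Loqs, had no start-site peak. The nearest thresholded summit was 98595 bp from a start site of drosha, 9239 bp for pasha, 13546 bp for Dcr-1 and 127328 bp for loqs, the partner of Dicer-1. The nearest candidate to these 4 was at 19253, 4456, 11280 and 20655 bp.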

How the data were processed

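Regions of dl-GFP ChIP-seq from 2 biological replicates of whole larvae were analysed in dm6. Per the deposited description files, the authors called candidate regions on each ChIP alignment and on the pooled alignments against a control alignment, and thresholded them by the irreproducible discovery rate; the sources used here name no aligner, caller, version or threshold. The signal of each region, as deposited by the authors, is a value of enrichment over the control and was not normalised between lists, so it was read within a list. The dm3 lists and the control were not analysed here.

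The gene annotation was Ensembl release 115 (BDGP 6.54), leaving out transposable elements, pseudogenes and separate entries for mature miRNAs. Summit positions were taken from the region start plus the deposited offset. A precursor was exonic or intronic by the gene on its own strand first, then by the opposite strand, and otherwise intergenic. Position backgrounds used a precursor of 92 bp at each base of the arms. The best regions of a single list were its 2718 of highest signal. Mature miRNAs, peaks and motif matches were read from the RefSeq release 6 genome with pysam 0.24.0, and tables were made with Python 3.11.15, pandas 2.3.3, numpy 2.4.6 and scipy 1.17.1. Distances and clusters were tested on simulated data.

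With 1 group there is no test between conditions, and the counts are descriptions with genes or regions, not animals, as units. The members and lists were chosen with earlier results of these data known. The genes named are those with a peak at the precursor or host start, the next 5 precursors beyond the limit, the members of the role lists and the strongest candidates that did not pass; the 7 precursors holding the GA repeat were named after their values were seen. Alternatives were other windows, distances, cluster rules, signal limits and single lists.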

Additional observations from a re-analysis of the deposited data

How the results depend on the processing

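The count of precursors with a thresholded peak depends on the window: the 23 at 1000 bp were 11 at 500 bp, 37 at 2000 bp and 62 at 5000 bp, when 1.98, 6.17 and 13.1% of arm positions qualify against 4.23, 14.2 and 23.8% of precursors. Loci went from 20 to 11 at 500 bp and 44 at 5000 bp, intronic precursors from 9 to 4 and 22, and intergenic precursors from 5 to 2 at 500 bp, 10 at 2000 bp and 14 at 5000 bp. Precursors with a candidate went from 109 to 190 at 5000 bp. With the peaks under the median signal left out, 12 precursors, 11 loci, 5 intronic and 2 intergenic precursors, 7 lncRNA hosts and 2 genes of miRNA maturation remained. In the best regions of list A alone 3 intergenic precursors had a peak, and the cause was not tested; list A kept 19 and list B 18 of the 23 precursors, and 15 had a peak in both. After seeing the data, peaks within 500 bp of a start site of another gene were left out, which kept 16 of 23 precursors and 14 of 20 loci. The other alternatives for these counts moved them by no more than 1.5 times. No paired analysis was possible because there was 1 group. Read depth is unknown, so a precursor without a peak is one with no region passing the authors' filter, and binding below that limit was not detectable here.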
